A study of Arabidopsis thaliana with 9 samples.

Results

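The early response of Arabidopsis thaliana seedlings to a callus-inducing hormone pair was taken as the 3 arrays at 2 d of treatment against the 3 arrays at 0 d, which are 6 of the 9 arrays of the series, and was read across all 10343 probe sets of the deposited table that are not controls, which hold 5482 genes by name or locus. The remaining 3 arrays are seedlings at 8 d, used in the shared estimate of the spread and for values beside those at 2 d. All plants were wild-type whole seedlings, grown for 4 days before the 0 d arrays were taken. The 2 d seedlings had then spent 2 days on Murashige and Skoog medium with 2,4-D, a synthetic auxin, at 2.26 µM and kinetin, a cytokinin, at 0.46 µM. The series was made to set another callus inducer, FPX, beside these hormones, but the 9 arrays are labelled only 0 d or 2,4-D with kinetin. Seedling age, transfer to the medium and the hormones all differ between 0 d and 2 d and cannot be told apart.

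Auxin acts by removing Aux/IAA repressors from the promoters of its target genes, many of which encode new Aux/IAA proteins and transcription factors. Cytokinin signals through a phosphorelay that ends in response regulators. On a medium rich in auxin, cells next to the vascular tissue of roots and other organs divide and form callus by a route that starts like a lateral root. Cells that elongate or form hairs have left division and depend on wall-loosening proteins.

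Each value is a probe set signal on a linear intensity scale, and array medians ran from 445 to 546. A gene was called where limma gave a Benjamini-Hochberg adjusted p under 0.05 and the log2 change was 1 or more in size. Of the 10343 probe sets, 99.8% had an F test p under 0.05 over the 3 time points, so the table looks selected for change, and adjusted p-values are too small. The labels do not say whether the 3 arrays of a group are separate cultures, and the p-values then rest on a spread between arrays that may be technical. The 2 d replicate 1 array stood apart from its group, with the lowest estimated array weight, 0.27 against 0.876 and 3.12 for the others at 2 d. Of the tested probe sets 5521 have a single gene, and 847 genes carry a symbol beyond their locus code; only these are named.

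At 2 d, 1546 probe sets (14.9%) were called, 1008 higher (9.75%) and 538 lower (5.2%). Log2 changes ran from -5.36 to 4.39, with a median of 0.19 over all probe sets. The median was 0.01 after centring each array on its median, 0.04 after quantile normalization and 0.39 after centring on the hybridisation controls, and rises and falls below are relative to the deposited scaling. Changes are log2 changes, 2 d minus 0 d, throughout. The counts called under each setting are plotted, and the share that were higher, 65.2% as deposited, became 48.1%, 46.7% and 81.2% under these scalings, so no excess of rises over falls was established. Among the 847 genes with a symbol, 87 were called higher (10.3%) and 66 lower (7.79%), and their median change was 0.03. In 595 of the 847 (70.2%) the 0 d and 2 d arrays did not overlap. The 12 largest rises and 12 largest falls were named only where the arrays did not overlap. For them non-overlap adds nothing to the call. An unadjusted p under 0.05 was reached by 67.6% of all probe sets and 66.6% of the genes with a symbol, and such counts below are read against these shares.

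**Figure D1:**
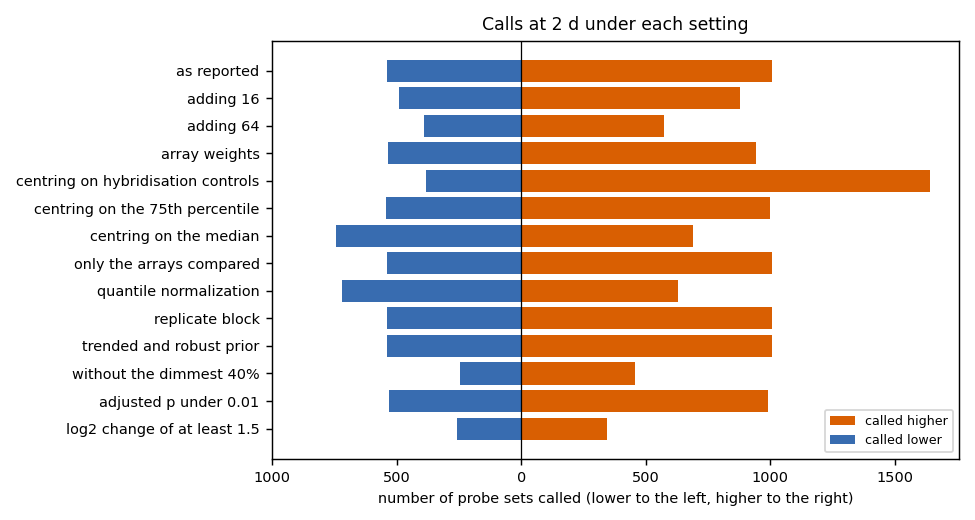
Number of probe sets called at 2 d under each setting, higher (orange, to the right) and lower (blue, to the left). The settings keep both directions, and the balance shifts from 1641 higher and 381 lower with centring on the hybridisation controls to 631 higher and 720 lower after quantile normalization.

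**Figure D2:**
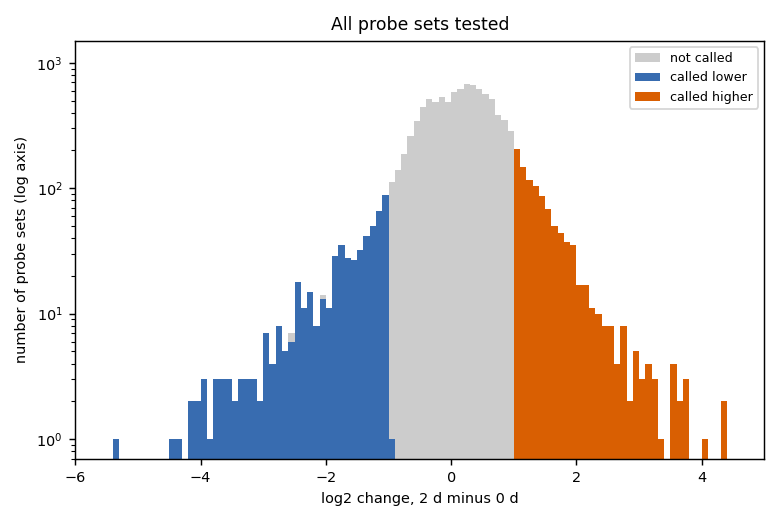
Number of probe sets (log axis) by log2 change, 2 d minus 0 d, in bins over all 10343 tested. Grey parts are probe sets not called and coloured parts those called, 538 lower (blue) and 1008 higher (orange).

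Among regulators linked to the hormones, an Aux/IAA repressor, an LBD factor, an HD-Zip factor and a vascular peptide rose, while a response regulator and a TCP factor fell. IAA30 (AT3G62100), which encodes an Aux/IAA protein, gave signals of 59.8, 70.1 and 51.3 at 0 d and 667, 349.8 and 398 at 2 d. Every 2 d array was above every 0 d array (log2 change 2.92, SE 0.22, adjusted p = 7.04e-06), and at 8 d the signals were higher again, at 1564, 1649 and 1737. IAA18, the other Aux/IAA gene measured, was at 842 ± 20.7 at 0 d and 797 ± 42.4 at 2 d (SD, n = 3; log2 change -0.08, adjusted p = 0.532). LBD16 (AT2G42430), a lateral organ boundaries factor that acts in lateral root and callus founder cells, measured 139, 172 and 121 at 0 d and 534, 290.5 and 357 at 2 d. Its groups did not overlap either (log2 change 1.41, SE 0.28, adjusted p = 0.00185), although the 2 d array with the highest signal was replicate 1. HAT2 (AT5G47370), an auxin-inducible HD-Zip class II factor, moved from 666, 678 and 588 at 0 d to 2404, 2399 and 2141 at 2 d (log2 change 1.85, SE 0.13, adjusted p = 4.61e-06).

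The response regulator gene RR16 (AT2G40670), a type-A member of the cytokinin pathway, went the other way, with signals of 243, 267 and 309.8 at 0 d and 139, 125 and 86.8 at 2 d (log2 change -1.25, SE 0.26, adjusted p = 0.00243). It fell further by 8 d, to 40.4, 38.1 and 20.1, and its call at 2 d ended when 64 was added to every signal (log2 change -0.91). YUC2, a flavin monooxygenase of auxin synthesis, was at 167 ± 21.9 at 0 d and 129.5 ± 18.7 at 2 d (SD, n = 3; log2 change -0.37, adjusted p = 0.0631). TCP15 (AT1G69690), a class I TCP growth regulator, fell from 889.7, 839 and 734 at 0 d to 206, 267 and 268 at 2 d (log2 change -1.74, SE 0.13, adjusted p = 7.93e-06). SHI, a RING-like zinc finger factor of a family that promotes auxin synthesis, rose with a log2 change of 1.78, from a low mean of 74.2 to 252. Its mean at 8 d was 458.

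CLE44 (AT4G13195) encodes the same secreted peptide as CLE41, a signal that keeps vascular stem cells dividing and holds back their differentiation into xylem. CLE44 rose from 155, 168 and 146 at 0 d to 494, 619.9 and 576 at 2 d (log2 change 1.85, SE 0.20, adjusted p = 5.9e-05). CLE41 had a mean of 924 ± 188 at 0 d and 536 ± 21.0 at 2 d (SD, n = 3; log2 change -0.77), short of the fold threshold. Of 5 gibberellin signalling genes 1 was called higher, against 10.3% of genes with a symbol. This was SLY2, an F-box protein of gibberellin signalling (log2 change 1.68, SE 0.19, adjusted p = 6.53e-05). Its paralogue SLY1 had a log2 change of -0.51 and was not called. LPR1, a multicopper oxidase that arrests root growth under low phosphate, rose from 71.6, 43.1 and 52.3 at 0 d to 416, 332 and 362 at 2 d (log2 change 2.76, SE 0.18, adjusted p = 3.96e-06), against a log2 change of 0.68 for LPR2. The receptor kinase GSO1, which acts in the embryonic cuticle and the root endodermis, fell by 1.94 on the log2 scale to a mean of 93.9, and was at 42.6 by 8 d. Of 7 RALF peptides and receptors of that family 2 fell, against 7.79% of genes with a symbol. RALFL22 and RALFL32 fell (log2 changes -1.15 and -1.14) and the receptor kinases FER and THE1 stood at -0.34 and -0.70, not called. The RALFL32 call ended without 2 d replicate 1 (log2 change -0.99), and both peptide calls ended after centring on the hybridisation controls (log2 changes -0.95 for RALFL22 and -0.94 for RALFL32).

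**Figure D3:**
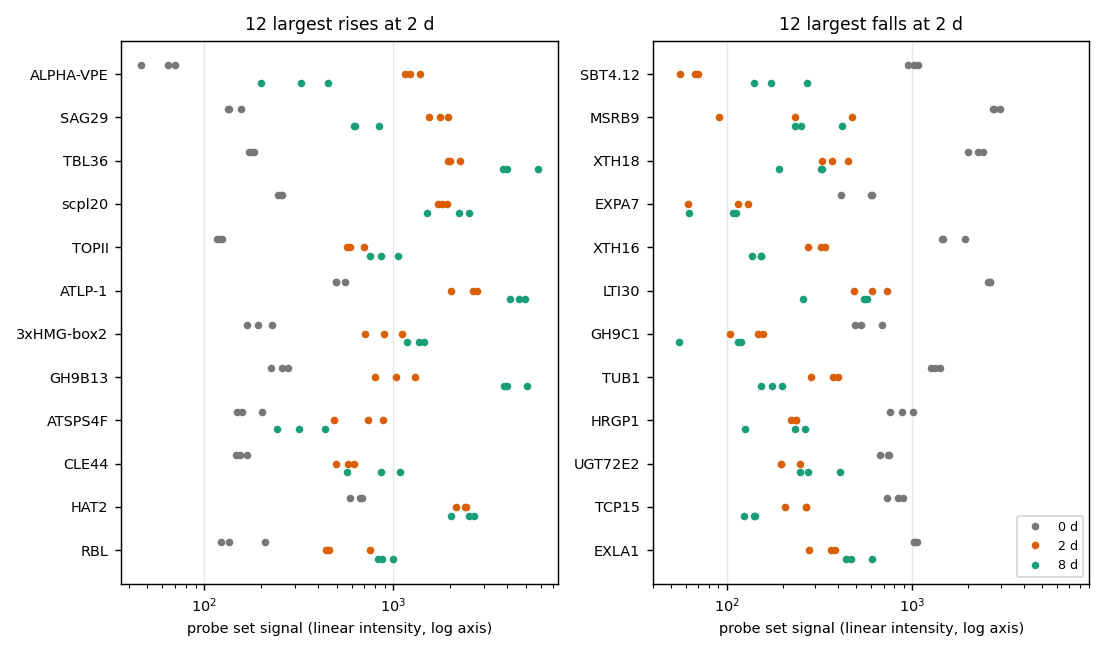
Signal on each array (log axis) at 0 d (grey), 2 d (orange) and 8 d (green), 3 points a group, for the 12 largest rises (left) and the 12 largest falls (right) at 2 d under the naming rule. Genes were admitted only where the 0 d and 2 d points do not overlap, and run from ALPHA-VPE (log2 change 4.39) to RBL (1.82) and from SBT4.12 (-3.98) to EXLA1 (-1.61).

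Genes of DNA replication, chromosome segregation, cytokinesis and chromatin formed a group pooled from several lists. These lists were chosen with earlier results of these data known, so the share of rises is descriptive only. Of 55 measured, 22 were called higher (40%, against 10.3% of genes with a symbol) and 0 lower. Their median log2 change was 0.89 against 0.03, and 53 of 55 changes were above 0. By limma, 46 of the 55 had an unadjusted p under 0.05, in a table where 67.6% of all probe sets did. The number called higher was 12 after adding 64, 17 after quantile normalization, 18 after centring on the median, 28 after centring on the hybridisation controls and 21 to 24 with an array left out, with 0 lower in each.

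DNA topoisomerase II (TOPII, AT3G23890), which untangles replicated chromosomes, gave 116, 120.3 and 124 at 0 d and 571, 593 and 699 at 2 d. This was the largest rise of the group (log2 change 2.36, SE 0.14, adjusted p = 2.06e-06). On a list of 6 genes of DNA replication and repair 4 rose, against 10.3% of genes with a symbol. They were PRL, a subunit of the MCM helicase, ICU2, which encodes the DNA polymerase alpha catalytic subunit, POLA3 of its primase, and POLD3 of DNA polymerase delta. ATLIG4 and RAD4 of that list (log2 changes 0.48 and 0.42) were not called, nor was PSF2 (0.79) of another list. PRL measured 398, 279 and 377 at 0 d and 1043, 775 and 1173 at 2 d (log2 change 1.5, SE 0.18, adjusted p = 9.57e-05), and ICU2, a dimmer gene, 57.0, 57.7 and 98.5 at 0 d and 216, 152 and 208 at 2 d (log2 change 1.47, SE 0.21, adjusted p = 0.000289). The groups were apart for both, while the ICU2 call ended with 64 added (log2 change 0.93). POLD3 rose by 1.66 log2 units and POLA3 by 1.06, the latter close enough to the threshold to end under 5 alternatives, among them leaving out 2 d replicate 1 (log2 change 0.90). In repair, the uracil glycosylase gene UNG rose by 1.84 log2 units from a mean of 39.8, at the dim end of the table, and fell short of the threshold with 64 added (log2 change 0.97). The helicase RECQ4A and topoisomerase TOP3A had log2 changes of 1.0 and 0.90 and were not called.

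In mitosis the 3xHMG-box proteins, which bind condensed chromosomes, rose together. 3xHMG-box2 (AT4G23800) went from 168, 192 and 228 at 0 d to 1116, 707 and 894 at 2 d (log2 change 2.2, SE 0.17, adjusted p = 1.06e-05), and 3xHMG-box1 from 65.8, 93.1 and 63.9 at 0 d to 218, 239.5 and 354 at 2 d (log2 change 1.85, SE 0.22, adjusted p = 9.8e-05). All 2 d arrays of 3xHMG-box1 exceeded all 0 d arrays, which the naming rule required of 3xHMG-box2. KINESIN-12B, a motor of the cell plate-forming phragmoplast, rose by 1.74 log2 units, and so did FU (FUSED), a kinase needed for cytokinesis of pollen, by 1.58, and Haspin, a histone H3 kinase of mitosis, by 1.51. The second FU probe set had a log2 change of 0.98. The TRM genes, whose products recruit proteins to cortical microtubules, had 2 of 4 called higher, against 10.3% of genes with a symbol. These were TRM28 (1.40) and TRM19 (1.19), while TRM22 was at 0.70 and TRM18 at -0.30, the only mitosis gene below 0. AUR2, an Aurora kinase, and BUB3.1, of the spindle checkpoint, both had a log2 change of 1.15. Their calls, like that of TRM19, ended under more than 1 alternative, among them quantile normalization (0.91 for AUR2, 0.92 for BUB3.1 and 0.90 for TRM19). AUR1 and AUR3 had log2 changes of 0.89 and 0.62 and were not called.

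Among histones and chromatin remodellers, 5 of 9 genes in the first list and 1 of 13 in a second list rose. Against 10.3% of genes with a symbol, the second list is near that share. HTB2, a histone H2B, measured 302, 388 and 315 at 0 d and 1239, 766 and 879.7 at 2 d (log2 change 1.5, SE 0.17, adjusted p = 7.78e-05). HTR12, the centromeric histone H3, went from 66.1, 68.8 and 62.0 at 0 d to 188, 170 and 190.4 at 2 d (log2 change 1.48, SE 0.12, adjusted p = 9.5e-06), a rise from dim signals that ended with 64 added (0.93). The remodellers CHR17, CHR23 and CHR24 rose by 1.36 log2 units, 1.30 and 1.54 log2 units, and the linker histone HIS1-3, known from drought, by 1.36. With 64 added the calls of CHR23 and CHR24 ended (0.82 and 0.98). HIS1-3 was uneven at 2 d, with 124, 129 and 87.4 at 0 d and 156, 402 and 379 at 2 d, and replicate 1 lay closest to the 0 d arrays. HTB4, also an H2B gene, had a log2 change of 0.20. SIM, the only cell cycle inhibitor measured and known for holding back division in cells that enlarge their genome, was at 819 ± 70.0 at 0 d and 506 ± 52.7 at 2 d (SD, n = 3; log2 change -0.70, adjusted p = 0.00182), short of the fold threshold. At 8 d its mean was 332.

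**Figure D4:**
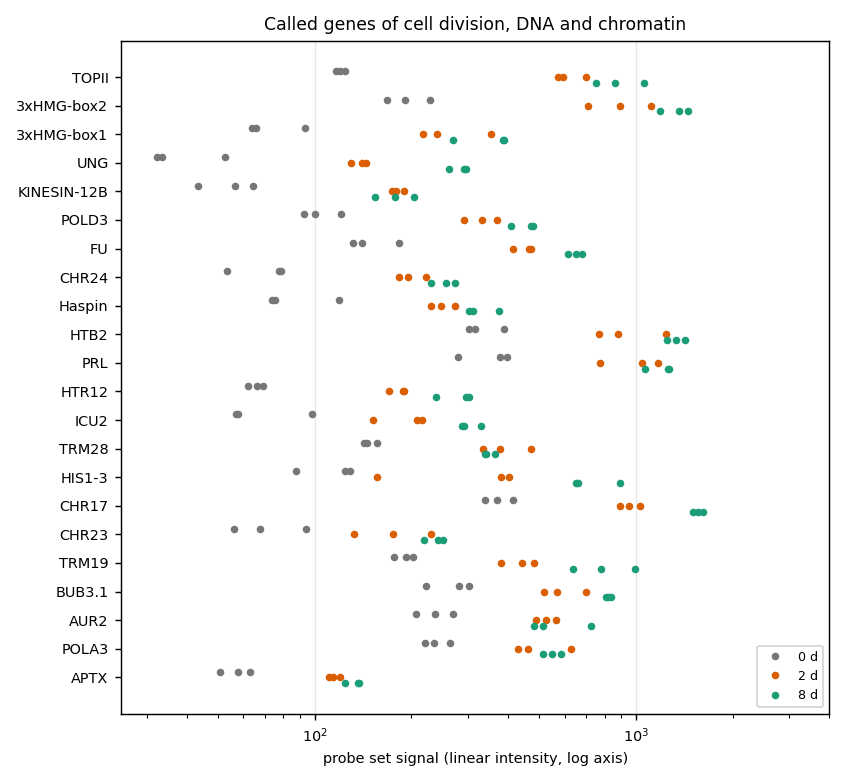
Signal on each array (log axis) at 0 d (grey), 2 d (orange) and 8 d (green) for the 22 called genes of cell division, DNA and chromatin, ordered by their log2 change at 2 d from TOPII (2.36) to APTX (1.01). In each gene the 3 arrays at 2 d lie above the 3 at 0 d. The genes were picked by their calls on these same arrays, which favours such separation. Of all genes with a symbol, 70.2% had no overlap. The APTX call ended under several alternatives, among them array weights (0.95).

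Beside division, a few genes of transcription and export rose. The 2 largest subunits of RNA polymerase I, the enzyme that makes ribosomal RNA, rose by 1.79 log2 units (NRPA1) and 1.29 (NRPA2). NRPA1 measured 133, 120.4 and 113 at 0 d and 518, 374 and 384 at 2 d with no overlap (log2 change 1.79, SE 0.14, adjusted p = 9.35e-06). The paired subunits of RNA polymerase III were at 0.95 (NRPC1) and 0.91 (NRPC2), not called. Of 7 subunits of RNA polymerases II, IV and V, 0 were called, with 4 at an unadjusted p under 0.05 by limma, against 67.6% of all probe sets, and a median log2 change of 0.43. Splicing and RNA-binding genes likewise had 0 calls of 10, with 5 at an unadjusted p under 0.05, below the same share. Of 7 pore and export genes 2 were called higher, against 10.3% of genes with a symbol. They were THO1 and TEX1, subunits of the complex that links transcription to mRNA export, at 1.01 and 1.15. Both calls ended under several alternatives, among them centring on the median (0.84 for THO1 and 0.98 for TEX1). That of THO1 also ended without 0 d replicate 2 (0.99) or 2 d replicate 3 (0.95).

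**Figure D5:**
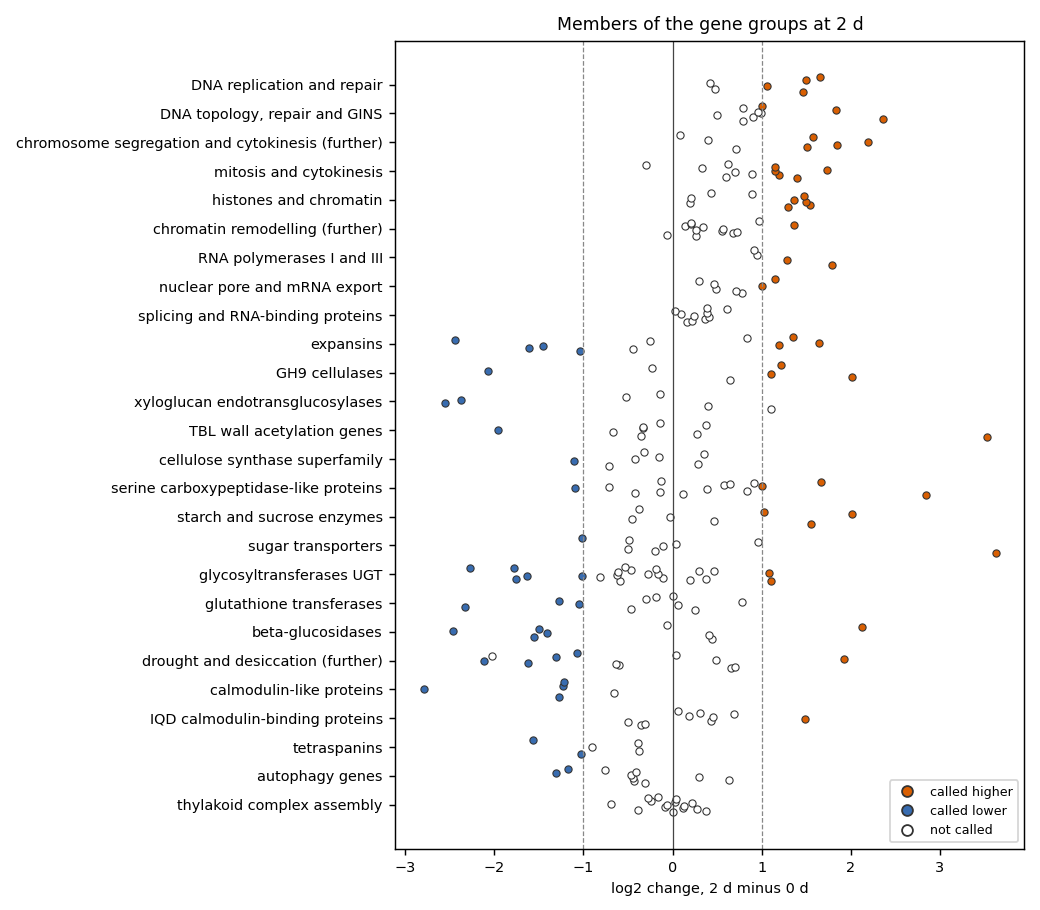
Log2 change, 2 d minus 0 d, of each measured member (points) of 26 gene groups; orange points were called higher, blue called lower, open points not called, and dashed lines mark a log2 change of 1 either way. The division and DNA groups at the top lie almost wholly above 0, and the wall families are on both sides.

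Cell wall genes moved both ways, and members of the same family differed. Of 48 measured, 7 rose (14.6%) and 11 fell (22.9%), against 10.3% and 7.79% of genes with a symbol, and the median log2 change was -0.24. After centring on the hybridisation controls the counts were 9 and 9. Expansins loosen walls during growth, and 3 of 10 rose while 4 fell. EXPB3 rose from 306, 372 and 337 at 0 d to 1204, 813 and 1181 at 2 d (log2 change 1.64, SE 0.30, adjusted p = 0.00106), EXPA4 by 1.35 to a mean of 3731, and EXPA20 by 1.19. EXPA7 (AT1G12560), made in root hair cells, fell from 606, 595 and 410.4 at 0 d to 61.6, 115 and 131 at 2 d (log2 change -2.44, SE 0.31, adjusted p = 0.00013). It was the only gene of a root hair list of 7 that was measured. SCN1, the other measured gene of a root hair and root epidermis group, had a log2 change of 0.28 and was not called. For EXPA7, fewer hair cells and less RNA per cell cannot be told apart in whole seedlings. The expansin-like genes EXLA1 and EXLA2 fell by 1.61 and 1.46 on the log2 scale, and EXPA9 by 1.04, with a mean of 1106 at 8 d. The EXPA20 call ended in quantile normalization (0.91) and the EXPA9 call after centring on the hybridisation controls (-0.84).

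Xyloglucan endotransglucosylases cut and rejoin the polymers that tether cellulose. XTH18 (AT4G30280), a root-expressed member, fell from 1990, 2258 and 2411 at 0 d to 326, 370.1 and 452 at 2 d (log2 change -2.55, SE 0.21, adjusted p = 1.18e-05), and XTH16 from 1465, 1454 and 1925 at 0 d to 322, 339 and 272 at 2 d (log2 change -2.37, SE 0.14, adjusted p = 2.06e-06). Both were named under the rule that required groups without overlap. XTH19 and XTH20, close relatives of XTH18, had log2 changes of 0.40 and 1.11 and were not called (adjusted p = 0.0246 and 0.0531), and XTH20 was called under 5 alternatives. The GH9 endoglucanases, which act on wall glucans, had 3 of 6 higher and 1 lower, against 10.3% and 7.79% of genes with a symbol. GH9B13 rose from 278, 257 and 225 at 0 d to 1033, 800.1 and 1299 at 2 d (log2 change 2.02, SE 0.18, adjusted p = 1.92e-05) and reached 5059, 3854 and 3980 at 8 d, whereas GH9C1 fell from 491, 529 and 687 at 0 d to 104, 146 and 158 at 2 d (log2 change -2.07, SE 0.28, adjusted p = 0.000208).

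TBL genes encode enzymes or likely enzymes that add acetyl groups to wall polysaccharides. TBL36 (AT3G54260) rose from 184, 178 and 171 at 0 d to 1933, 2000 and 2245 at 2 d, the third-largest rise under the naming rule (log2 change 3.53, SE 0.15, adjusted p = 5.99e-07), and reached 5801, 3998 and 3789 at 8 d. TBL38 fell by 1.96 on the log2 scale, and the other 7 measured were not called. So 1 of 9 rose and 1 fell, near the 10.3% and 7.79% of genes with a symbol. The hydroxyproline-rich glycoprotein gene HRGP1 fell by 1.91 on the log2 scale, on a probe set type that can bind related transcripts. EXO (EXORDIUM), an extracellular protein of cell expansion, fell from 4443, 4522 and 3991 at 0 d to 2147, 1469 and 1616 at 2 d (log2 change -1.33, SE 0.17, adjusted p = 0.00014). Its 8 d signals, 3976, 2867 and 3957, were nearer to those at 0 d. TUB1, a beta-tubulin, went from 1327, 1416 and 1256 at 0 d to 375, 398 and 284 at 2 d (log2 change -1.93, SE 0.15, adjusted p = 8.19e-06). It was the only tubulin or actin gene of 5 that was called, against 7.79% of genes with a symbol called lower.

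Among genes with a symbol, proteases of the vacuole and the wall held the extremes of both directions. ALPHA-VPE (AT2G25940), a vacuolar processing enzyme that matures proteins in the vacuoles of vegetative organs, gave 46.2, 70.2 and 64.3 at 0 d and 1148, 1217 and 1381 at 2 d. This was the largest rise of any gene with a symbol (log2 change 4.39, SE 0.26, adjusted p = 2.33e-06), and at 8 d its signals were 324, 450.3 and 200.2, between those at 0 d and 2 d. GAMMA-VPE, another vegetative member, was at 1852 ± 240.2 at 0 d and 1350 ± 167 at 2 d (SD, n = 3; log2 change -0.46), not called. The subtilase gene SBT4.12 (AT5G59090) fell from 1017, 1074 and 953 at 0 d to 56.3, 69.9 and 67.7 at 2 d, the largest fall of any gene with a symbol (log2 change -3.98, SE 0.21, adjusted p = 1.3e-06). Serine carboxypeptidase-like genes had 3 of 14 higher and 1 lower, against 10.3% and 7.79% of genes with a symbol, and 2 higher with 64 added or after quantile normalization. scpl20 rose from 253, 258 and 245 at 0 d to 1815, 1723 and 1919 at 2 d (log2 change 2.85, SE 0.16, adjusted p = 2.06e-06) and scpl48 by 1.67 to a mean of 2896. scpl35 was called at 1.01, a call that ended under several alternatives, among them without 2 d replicate 1 (0.77) or 0 d replicate 2 (0.88). In the ubiquitin pathway 1 of 21 genes was called higher, against 10.3% of genes with a symbol. This was the U-box ligase PUB25 (log2 change 1.66, SE 0.13, adjusted p = 1.07e-05).

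Of 8 sugar transporters, 1 rose and 1 fell, near the 10.3% and 7.79% of genes with a symbol, and of 7 starch and sucrose genes 3 rose. SAG29 (AT5G13170), a SWEET-type sugar efflux carrier named for its rise in senescing leaves, went from 134, 133 and 156 at 0 d to 1547, 1760 and 1953 at 2 d (log2 change 3.63, SE 0.15, adjusted p = 4.1e-07). Its signals at 8 d, 627, 840.4 and 615, were below those at 2 d. SWEET2, of the same family, had a log2 change of 0.95 and was not called, with the call made under 4 alternatives, and SWEET11 one of -0.10. TMT1, which loads sugars into the vacuole, fell by 1.02 on the log2 scale, a call that ended under 5 alternatives, among them without 2 d replicate 1 (-0.99) or 2 d replicate 3 (-0.95). The sucrose phosphate synthase gene ATSPS4F rose from 158, 203 and 149 at 0 d to 487, 732 and 883 at 2 d (log2 change 2.02, SE 0.25, adjusted p = 0.000126) and was back to 243, 315 and 437 at 8 d. With it rose F2KP, the bifunctional enzyme that sets fructose 2,6-bisphosphate (1.03), and APL4, a large subunit of the first enzyme of starch synthesis (1.55). The F2KP call ended under several alternatives, among them centring on the median (0.86) and leaving out 2 d replicate 2 (0.99) or replicate 3 (0.95). That of APL4 ended with 64 added (0.88). The glycolytic gene GAPC2 was at 14910 ± 391 at 0 d and 14130 ± 409 at 2 d (SD, n = 3; log2 change -0.08).

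Beta-glucosidases release sugars from stored conjugates such as glucosinolates and monolignol glucosides. Of 8 measured, 4 fell and 1 rose, against 7.79% and 10.3% of genes with a symbol. Leaving PYK10 aside, 2 of the other 7 were tested without the dimmest 40% of probe sets, with 1 lower and 0 higher. BGLU25 fell from 1595, 1548 and 1640 at 0 d to 521, 539 and 558 at 2 d (log2 change -1.56, SE 0.10, adjusted p = 3.84e-06), and BGLU45 and BGLU46, which act on monolignol glucosides, fell by 2.46 and 1.41 on the log2 scale. BGLU28, a member induced by sulphur shortage, was called lower at -1.50, but its 2 d signals were uneven, with 809, 1113 and 819 at 0 d and 142, 464 and 494 at 2 d, and the call ended without 2 d replicate 1 (-0.92). BGLU33 rose from 114, 92.2 and 75 at 0 d to 328, 369 and 544 at 2 d (log2 change 2.13, SE 0.23, adjusted p = 5e-05). UGT72E2 (AT5G66690), which adds the glucose to monolignols, fell from 670.4, 750.4 and 740.4 at 0 d to 195, 196 and 249 at 2 d (log2 change -1.76, SE 0.18, adjusted p = 4.25e-05).

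Genes of dehydration and cold fell in 4 of 12 and rose in 1, against 7.79% and 10.3% of genes with a symbol, so the single rise is near that share. The dehydrin LTI30 (AT3G50970) fell from 2618, 2573 and 2617 at 0 d to 485, 605 and 727 at 2 d (log2 change -2.12, SE 0.27, adjusted p = 0.000147) and remained at 256, 573 and 549.9 at 8 d. COR47, another dehydrin, fell from 5558, 6123 and 4097 at 0 d to 2152, 2086 and 2024 at 2 d (log2 change -1.31, SE 0.19, adjusted p = 0.000278), but its 8 d signals of 4939, 5415 and 7840 were at the level of 0 d. LEA4-5, a late embryogenesis abundant protein, and RD2 fell by 1.62 and 1.07 on the log2 scale. The RD2 call ended in quantile normalization (-0.95) and after centring on the hybridisation controls (-0.88). COR15A, a chloroplast protein of cold tolerance, gave 446, 515 and 398 at 0 d and 122, 145 and 75.2 at 2 d, with no overlap, and 7.05, 105 and 220 at 8 d. Its log2 change of -2.03 was not called over all 9 arrays (adjusted p = 0.0893), and was called under 6 alternatives, among them the fit to the 6 arrays of 0 d and 2 d. EEL, a bZIP factor that acts on seed protein genes in embryos, rose from 82.0, 89.4 and 57.5 at 0 d to 282, 269 and 308 at 2 d (log2 change 1.93, SE 0.17, adjusted p = 1.64e-05) and to 1207, 1066 and 1377 at 8 d.

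Genes of detoxification, which conjugate or oxidise foreign and endogenous compounds, included 9 lower (25%) and 3 higher (8.33%) of 36, against 7.79% and 10.3% of genes with a symbol. The 3 rises were lost in quantile normalization (0 higher, 10 lower) and with 64 added (0 higher, 6 lower). Without the dimmest 40% of probe sets 1 of 15 was called lower. UGT73B5 (AT2G15480), a glucosyltransferase of stress responses, fell from 259, 336 and 210.2 at 0 d to 80.6, 51.1 and 39.5 at 2 d (log2 change -2.27, SE 0.27, adjusted p = 8.6e-05). UGT73B4 (AT2G15490), its close relative, fell from 379, 419 and 299.7 at 0 d to 148, 82.3 and 95.5 at 2 d (log2 change -1.78, SE 0.23, adjusted p = 0.000149) and then stood at 711, 728 and 1036 at 8 d, above its 0 d level. UGT73B1 fell by 1.63 on the log2 scale, and remained low at 8 d (mean 94.3). UGT76C1 and UGT76C2, which glucosylate cytokinins, had log2 changes of 0.38 and -0.11, and IAGLU, which glucosylates auxin, one of -0.74 (none of them called). Among 10 glutathione transferases, GSTU28, GSTU26 and GSTU22 fell (log2 changes -2.33, -1.28 and -1.05). The GSTU22 call ended under 5 alternatives, among them without 0 d replicate 2 (-0.92) or 2 d replicate 2 (-0.96).

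Of the enzymes that repair oxidised methionine, MSRB9 (AT4G21850) fell from 2969, 2724 and 2753 at 0 d to 476, 234 and 91.2 at 2 d (log2 change -3.70, SE 0.47, adjusted p = 0.000143). The 2 d arrays were uneven, but all lay far below 0 d. MSRB6 fell from 1608, 1404 and 1805 at 0 d to 484, 664 and 792 at 2 d (log2 change -1.33, SE 0.17, adjusted p = 0.000137) and went on to 91.6, 87.3 and 86.7 at 8 d, while MSRB3 had a log2 change of -0.42. The class III peroxidase gene Prx37 rose by 1.19 log2 units, a call that ended in quantile normalization (0.93), and reached a mean of 1554 at 8 d. AER, a reductase of reactive carbonyl compounds, fell from 1514, 1852 and 1653 at 0 d to 616, 616 and 458 at 2 d (log2 change -1.58, SE 0.14, adjusted p = 1.55e-05).

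Calmodulin-like proteins sense calcium, and 4 of 5 measured fell, against 7.79% of genes with a symbol. Without the dimmest 40% of probe sets none of these 5 was tested. CML38 went from 318, 367 and 263 at 0 d to 76.2, 35.4 and 34.3 at 2 d (log2 change -2.79, SE 0.37, adjusted p = 0.000164) and was at 278, 184 and 107 at 8 d, while CML23, CML42 and CML43 had log2 changes of -1.27, -1.23 and -1.22. The calls of CML23 and CML43 ended with 64 added (-0.76 and -0.78). Of 10 IQD proteins, which bind calmodulin, 1 was called higher, near the 10.3% of genes with a symbol. This was IQD26 (1.49), and the call ended with 64 added (0.93). Tetraspanins are membrane organisers, and TET8 fell from 2788, 3616 and 2517 at 0 d to 1124, 928 and 933 at 2 d (log2 change -1.57, SE 0.16, adjusted p = 4.41e-05), with TET2 at -1.03, a call that ended under 6 alternatives, among them without 2 d replicate 1 (-0.92) or 0 d replicate 3 (-0.94). ATG8 proteins tag membranes for autophagy. Of 10 autophagy genes 2 fell, against 7.79% of genes with a symbol, namely ATG8H and ATG8E, by 1.31 and 1.17 on the log2 scale. The ATG8E call ended without 2 d replicate 1 (-0.95). In the endoplasmic reticulum, BZIP60, a factor of the unfolded protein response, fell from 1911, 2191 and 1830 at 0 d to 1018, 736 and 646 at 2 d (log2 change -1.33, SE 0.17, adjusted p = 0.000126). The other 10 quality control genes, BZIP28 (-0.37) and BZIP17 (0.42) included, were not called. So 1 of 11 fell, near the 7.79% of genes with a symbol.

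Among plastid genes outside the photosystems few were called, against 10.3% higher and 7.79% lower of genes with a symbol. PORB, a light-dependent enzyme of chlorophyll synthesis, fell from 6936, 6056 and 6043 at 0 d to 2918, 3000 and 2590 at 2 d (log2 change -1.16, SE 0.13, adjusted p = 6.13e-05). It was the only call among 10 tetrapyrrole genes, and the call ended after centring on the hybridisation controls (-0.96). On the deposited scaling 0 of these 10 genes had a change above 0, with a median log2 change of -0.36. Centring on the hybridisation controls moved the median of all probe sets from 0.19 to 0.39. A like shift would lift CHLM (-0.16), SIRB (-0.15), LIL3:1 (-0.03) and LIL3:2 (-0.01) above 0. Factors of thylakoid complex assembly had 0 calls of 15, with 3 at an unadjusted p under 0.05 by limma, against 67.6% of all probe sets, and a median log2 change of 0.00. Of 42 plastid-encoded genes other than photosystem subunits 1, rpl20, was called lower and 0 higher, and the rpl20 call ended without 0 d replicate 2 (-0.83). Their median log2 change was -0.45, against 0.03 for genes with a symbol, and 4 of the 42 changes were above 0. By limma, 29 had an unadjusted p under 0.05, close to the share of all probe sets. The number called lower ran from 0 after centring on the hybridisation controls to 6 after centring on the median. Aldehyde dehydrogenases and mitochondrial amino acid breakdown had 0 calls of 7 and 0 of 5, each with 3 at an unadjusted p under 0.05, again below 67.6%.

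Markers of the cell types that whole seedlings hold were sparsely measured. Besides EXPA7 and LBD16, the stomatal genes STOMAGEN, a peptide that promotes stomata, and FMA, a guard cell factor, were measured out of 9. STOMAGEN was at 560.2, 509 and 644 at 0 d and 263, 431 and 514 at 2 d and was not called (log2 change -0.55, adjusted p = 0.381), and FMA had a log2 change of 0.38. The summed signal of both was 632 to 766 at 0 d and 491 to 642 at 2 d, and 80.1 to 123 at 8 d. The 2 root cortex markers summed to 1871 to 2058 at 0 d and 1815 to 2620 at 2 d, with overlapping groups, and 444 to 709 at 8 d. RCA, the Rubisco activase of green tissue, was the only mesophyll marker of 9, with a log2 change of -0.10. Lists for root cap, endodermis, xylem, phloem, both meristems, epidermis and seed storage had 0 measured genes, and the part of cell composition in the changes above was not tested.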

How the data were processed

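RNA of whole seedlings was hybridised to 9 Affymetrix arrays, 3 each at 0 d, 2 d and 8 d, grouped by sample title. The authors deposited a linear intensity for each probe set. The submitters' processing notes name MAS5, while the scaling target and how probe sets were selected is not given in the sources used here. Per the labels, biotinylated cRNA was hybridised, although Cy3 is also given as the label. Control probe sets (23) were left out, and signals were used as log2 without rescaling. R 4.3.3 with limma 3.58.1 (lmFit, eBayes) fitted a mean for each group, all 9 arrays included. P-values are two-sided, adjusted by Benjamini-Hochberg over 10343 probe sets, and called under 0.05 where the log2 change was 1 or more in size. The fit was tested on simulated data. The number of arrays limits the precision.

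Gene names came from the array annotation, updated by the RefSeq gene table; 214 probe sets have several genes and 4608 are unnamed here. A gene with several probe sets is given by the brightest. GH3 genes, photosystem genes and the ribosome biogenesis genes YAO and IMP4 were set aside by symbol. RNA polymerase I subunits were kept, and other genes linked to ribosomes may remain. The naming rule took the 12 largest rises and 12 largest falls among called genes with a symbol, without overlap between groups and with the higher group above the table's median signal of 491, then up to 4 called members of each gene group, a fixed set of hormone, stress and marker genes, and measured markers. Uncalled relatives and some called genes were named beside them after their values were seen. Gene groups (91, of which 38 were added from gene names) and members were chosen with earlier results of these data known. The replicate numbers did not pair the arrays of 0 d and 2 d (correlations -0.04, -0.04 and -0.02). No sequence was used here.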

Additional observations from a re-analysis of the deposited data

Results flagged for a closer look

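The response of UGT73B4, a glucosyltransferase, differed between the 2 d and 8 d seedlings when both were set against 0 d. It fell at 2 d (log2 change -1.78) and was higher than at 0 d at 8 d, a difference of 2.95 on the log2 scale between the time points (limma, adjusted p = 5.48e-06). The 2 comparisons share the 0 d arrays, so the difference is that of 8 d against 2 d, and all 3 arrays at 8 d exceeded all 3 at 2 d. The cause was not tested.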

How the results depend on the processing

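Against 1546 probe sets called, the totals were 965 with 64 added to the signals (575 higher), 703 without the dimmest 40% (457 higher, 246 lower) and 604 at a log2 change of at least 1.5 (346 higher, 258 lower). Quantile normalization gave 631 higher, and centring on the hybridisation controls, chosen after seeing the data, 1641 higher. Fewer probe sets are tested without the dimmest 40%, adding a constant shrinks the changes of dim ones, and a larger change asks more. The cause of the other shifts was not tested. The number called stayed within 1.5 times of 1546 with 16 added, with array weights, with centring on the 75th percentile or the median, with a trended and robust prior, with only the 6 arrays compared, at an adjusted p under 0.01, and with an array left out, where it ran from 1497 without 2 d replicate 1 to 1681 without 2 d replicate 2 (967 to 1113 higher, 530 to 568 lower). The replicate number as a block gave 1548 calls; the numbers did not pair the arrays, and the block moved the count by less than 1.5 times. Of 109 called genes named by rule, 68 kept their call under every alternative that tested them, which was all 20 for 33 genes and 19, without the test of brighter probe sets, for 35. Over the genes named by rule 119 gene-by-setting results lost the call, 6 gained it (COR15A) and 0 turned direction. Using the mean of a gene's probe sets changed 0 of 91 group counts. Few could change, since the 5521 probe sets with a single gene hold 5482 genes. The planned motif share in promoters was not run, since no promoter sequence was used here. Dim signals limit the precision of folds, and detection calls were not used.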

Other observations

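Other genes with a symbol that moved at 2 d belonged to no group described above. ATLP-1 (AT1G18250), a thaumatin-like protein, rose from 494, 498 and 556 at 0 d to 2619, 2010 and 2774 at 2 d (log2 change 2.25, SE 0.14, adjusted p = 2.48e-06). The class V chitinase gene ChiC rose from 344, 365 and 338 at 0 d to 711, 761 and 949 at 2 d (log2 change 1.20, SE 0.13, adjusted p = 5.81e-05) and was at 327, 362 and 410.5 at 8 d. FDH, the mitochondrial formate dehydrogenase, rose from 2278, 2212 and 1774 at 0 d to 6144, 5720 and 4343 at 2 d (log2 change 1.36, SE 0.17, adjusted p = 0.000137). RBL (REBELOTE), known from floral meristem termination, rose from 122, 210.3 and 135 at 0 d to 752, 442 and 457 at 2 d (log2 change 1.82, SE 0.24, adjusted p = 0.000163), while its other probe set had a log2 change of 0.58. The actin-binding NET1A rose by 1.39 log2 units and was the only call of 6 NET genes, against 10.3% of genes with a symbol called higher. MTP11, a manganese transporter, rose by 1.07 log2 units, a call that ended after centring on the median (0.90).

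FACT, which makes caffeate esters of fatty alcohols found in root waxes, was higher at 2 d (log2 change 1.39) and had a mean of 99.5 ± 32.7 (SD, n = 3) at 8 d; the call at 2 d ended with 64 added (0.96). The bHLH gene ALC, known from fruit opening, fell by 1.22 on the log2 scale, also a call that ended with 64 added (-0.92). VPS2.2, of the ESCRT-III membrane remodelling complex, rose by 1.45 log2 units, whereas VPS60.1 fell by 1.02 on the log2 scale, a call that ended under 6 alternatives, among them leaving out 0 d replicate 1 (-0.97), 2 d replicate 2 (-1.0) or 2 d replicate 3 (-0.83). Hop3, a co-chaperone of HSP70 and HSP90, fell from 331, 406 and 286 at 0 d to 124, 121 and 129 at 2 d (log2 change -1.44, SE 0.13, adjusted p = 2.47e-05). The remaining 7 co-chaperones measured were not called, so 1 of 8 fell, against 7.79% of genes with a symbol.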
